A study of Mus musculus with 7 samples.

Results

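Vascular amyloid was profiled region by region on penetrating vessels of the brain, and within each mouse the regions with many cell nuclei were compared with those with few. The regions were selected on the deposited number of nuclei. In each of 7 mice, the penetrating-vessel regions above the median of that mouse were called nuclei-rich, those below it nuclei-poor, and regions at the median were left out. Of 166 regions with values in the series, 84 lie on penetrating vessels, and 79 of these entered the comparison, 39 as nuclei-rich and 40 as nuclei-poor. The 5 regions left out were 2 of mouse 49 and 3 of mouse 83.

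The mice were inbred PDAPP mice of both sexes, which carry a human amyloid precursor protein transgene and deposit amyloid in brain tissue and in vessel walls. They were treated for 3 months and were 23 to 26 months old, 3 with control IgG (IgG2a, 50 mg/kg, 2 injections per week; mice 37, 29 and 49) and 4 with 3D6 (an IgG2b antibody to the amyloid-β peptide, 25 mg/kg, 1 injection per week; mice 83, 81, 72 and 77), so that dose, isotype and schedule differ together with the antibody. Circles of 100 μm around amyloid-positive vessels of formalin-fixed coronal sections, 5 μm thick per the labels and 10 μm per the methods, were chosen on stains for amyloid and laminin and read with the GeoMx digital spatial profiler, which counts oligonucleotide tags released by ultraviolet light from antibodies bound within the circle. The panel held 25 target proteins, 3 housekeepers and 3 negative-control antibodies that measure non-specific binding.

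Penetrating arterioles carry blood from the surface of the brain into the cortex. Their wall is a layer of endothelial cells wrapped by smooth muscle, with macrophages in the space around it, and amyloid is laid down in the smooth muscle layer. A circle around such a vessel also takes in the tissue beside it, and the nuclear dye (SYTO 13) stains the nuclei of endothelium, smooth muscle, glia, neurons and leukocytes alike. The question of the comparison is therefore which proteins went with the number of nuclei when the mouse, its treatment and its scan were held constant.

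The number of nuclei chose the regions and is given as a description. The median was 18.5 nuclei per region in mouse 37, 109.5 in mouse 29 and 34 in mouse 49 under IgG. Under 3D6 it was 26 in mouse 83, 22.5 in mouse 81, 94 in mouse 72 and 29.5 in mouse 77. Mice 29 and 72, whose scan names in the deposited tables carry the mark scan2, thus lie far above the 18.5 to 34 of the other mice. Nuclei-rich regions held on average 2.51 times the nuclei of the nuclei-poor regions in mouse 37 and 2.21 times in mouse 77, against 1.25 times in mice 29 and 49, 1.55 in mouse 83, 1.47 in mouse 81 and 1.45 in mouse 72, with a geometric mean of 1.61 over the mice. The split was narrow at its border. The poorest rich and the richest poor region had 19 and 18 nuclei in mouse 37, 111 and 108 in mouse 29, 35 and 33 in mouse 49, 28 and 25 in mouse 83, 23 and 22 in mouse 81, 97 and 91 in mouse 72, and 31 and 28 in mouse 77.

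**Figure D1:**
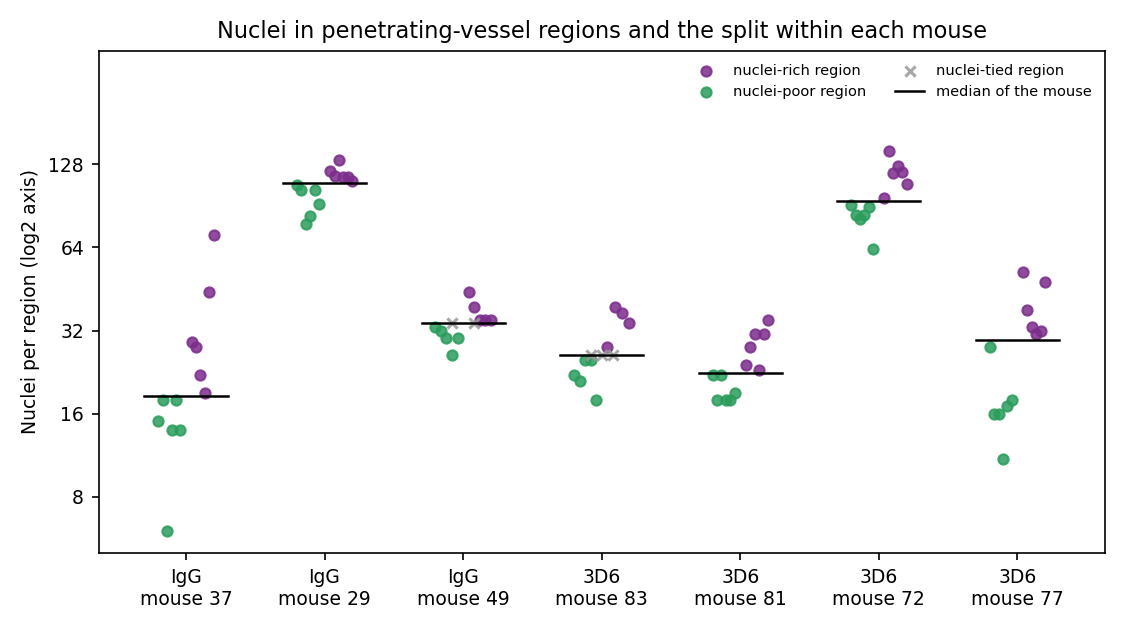
Nuclei per penetrating-vessel region (log2 axis) in each of the 7 mice, with nuclei-rich regions in purple, nuclei-poor regions in green, regions at the median as crosses and the median of the mouse as a line. The medians of mice 29 and 72 (109.5 and 94) stand above those of the other mice, and the classes meet at the median in every mouse.

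Other properties of the regions and of their readout were compared in the same way, because several of them could move with the split. The authors' warning for few nuclei was carried by 1 nuclei-rich and 16 nuclei-poor regions, which follows from the rule. Total counts per region had a median of 12077 (range 3519 to 221711) in nuclei-rich and 10414 (2571 to 254884) in nuclei-poor regions, and the log2 total was higher in the rich regions by 0.34 ± 0.43 (SD, n = 7 mice, exact sign-flip permutation p = 0.0781). The negative controls (log2 of their geometric mean count) differed by 0.03 ± 0.40 (SD, n = 7, exact p = 0.875), so the divisor of the ratios below was not detectably different between the classes. Its level was over 10 times the median of 12.3 counts in 5 regions, all of mouse 37, 3 rich and 2 poor. Rich regions carried lower region numbers in 5 of 7 mice, by 2.50 on average (exact p = 0.141), and 27 of 39 rich against 13 of 40 poor regions were numbered 13 to 18 of the 13 to 24 on penetrating vessels. In mouse 77 these numbers were carried by all 6 rich and 0 poor regions. The share of counted fields was higher in rich regions in 6 of 7 mice, by 0.0036 on average, and binding density in 5 of 7 mice. Both had the same value at a given region number in all mice of a readout run. The mice are therefore not independent in these 2 measures, which stand here without a p. The positive-control factor showed no difference by the sign-flip test (exact p = 0.844).

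Each protein's count was divided by the geometric mean count of the 3 negative-control antibodies of its region, and the log2 of this ratio was averaged over the rich and over the poor regions of a mouse. The mouse is the replicate, since the regions of a mouse come from the same animal and scan. On this scale all 3 markers of the vessel wall were present, with smooth muscle actin (SMA) at 90.1 times, CD34 at 13.5 times and CD31 at 13.0 times the negative controls over the 84 regions. The leukocyte marker CD45 stood at 4.05 times, the macrophage and microglia markers CD11b and F4/80 at 10.6 and 2.43 times, and the T cell receptor chain CD3e at 2.54 times. Over 2 times the negative controls were 18 of the 28 proteins, and CD4 (0.393 times), CD28 (0.485), FOXP3 (0.545), CD163 (0.777), PD-1 (0.817) and Ki-67 (0.925) were among those below them. Fewer cells of a type and less protein per cell cannot be told apart in such regions.

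Of the 28 proteins, only Histone H3 differed between nuclei-rich and nuclei-poor regions at an adjusted p under 0.05 (1 of 28, 3.57%), and it was higher in rich regions. Histone H3 is a core protein of the nucleosome, on which DNA is wound in every nucleus. Its mean log2 ratio in rich against poor regions was 5.65 against 4.77 in mouse 37, 5.69 against 4.99 in mouse 29, and 7.03 against 5.55 in mouse 49. Under 3D6 it was 5.78 against 5.57 in mouse 83, 5.21 against 3.99 in mouse 81, 5.89 against 5.47 in mouse 72, and 5.98 against 5.78 in mouse 77. On the ratio to the negative controls, the rich mean was the higher one in 7 of 7 mice, the only protein of the 28 with 1 direction in every mouse (3.57%), while the means of the mice overlapped between the classes. The difference was 0.73 (SE 0.19, 95% interval 0.33 to 1.13), a 1.66-fold higher ratio, with an adjusted p of 0.0353 by limma and an exact sign-flip p of 0.0156 over the 7 mice, the smallest that 7 mice allow. The number of nuclei itself differed by 0.68 on the log2 scale, but its differences did not follow those of Histone H3 from mouse to mouse. In mouse 77, 1.17 in nuclei stood beside 0.20 in Histone H3, and in mouse 49, 0.31 in nuclei stood beside 1.48 in Histone H3.

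The call on Histone H3 is narrow. It was lost without mouse 37, 29, 49 or 81 (limma adjusted p 0.0586, 0.134, 0.187 and 0.186, differences 0.61 to 0.73), without moderation of the variances (0.207), with the median in place of the mean of regions (0.0726), on counts not divided by the negative controls (0.199), and without the regions warned for few nuclei, which removes mouse 37 (0.119). Without mice 29 and 72 the difference was 0.80 (adjusted p 0.0327). With the region number as a covariate it was 0.81, in a fit chosen after seeing the data that takes regions and not mice as its units and therefore stands here without a p.

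The other housekeepers mark protein synthesis and glycolysis. S6, a protein of the small ribosomal subunit, had a log2 ratio of 5.55 in rich and 5.86 in poor regions of mouse 37, 8.06 and 7.36 in mouse 29, and 8.79 and 7.85 in mouse 49. Under 3D6 it was 7.61 and 7.68 in mouse 83, 7.75 and 7.13 in mouse 81, 7.995 and 7.51 in mouse 72, and 7.20 and 6.11 in mouse 77. It was thus higher in rich regions in 5 of 7 mice, by 0.49 (SE 0.19, adjusted p 0.177 by limma, exact p 0.0625). GAPDH, an enzyme of glycolysis, differed by 0.17 (SE 0.21, adjusted p 0.706 by limma), between -0.60 in mouse 37 and 1.18 in mouse 49. Before division by the negative controls, the log2 count in rich minus poor regions was 0.76 for Histone H3 (6 of 7 mice higher, exact p = 0.0312), 0.52 for S6 (7 of 7 mice, exact p = 0.0156) and 0.20 for GAPDH (3 of 7 mice, exact p = 0.609). For Histone H3 the undivided count was lower in the rich regions of mouse 77 (-0.31), where the negative controls were lower by 0.51. Its direction in 7 of 7 mice thus holds for the ratio only. The housekeepers were not tested against each other.

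The 3 vessel-wall proteins had the highest median of the lists, 0.60 against 0.16 over all 28 proteins, but 0 of 3 passed the adjusted threshold. CD31, an adhesion protein of endothelial junctions, was higher in rich regions in 6 of 7 mice. Its log2 ratio in rich and poor regions was 3.75 and 3.16 in mouse 37, 4.38 and 3.73 in mouse 29, 4.10 and 3.02 in mouse 49, 3.13 and 2.15 in mouse 83, 4.44 and 3.27 in mouse 81, 3.02 and 3.62 in mouse 72, and 4.91 and 4.59 in mouse 77. Mouse 72 alone went the other way, and the difference of 0.60 (SE 0.20) had an adjusted p of 0.142 by limma and an exact p of 0.0625.

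SMA, the contractile actin of arteriolar smooth muscle, varied most between the mice. Its log2 ratio in rich and poor regions was 5.57 and 3.20 in mouse 37, 7.33 and 6.27 in mouse 29, 7.73 and 7.04 in mouse 49, 8.24 and 6.30 in mouse 83, 7.12 and 7.27 in mouse 81, 4.52 and 6.28 in mouse 72, and 7.23 and 6.33 in mouse 77. The difference ran from -1.76 in mouse 72 to 2.37 in mouse 37 and averaged 0.72 ± 1.37 (SD, n = 7, adjusted p 0.322 by limma, exact p 0.219). Without mouse 72 it was 1.14 with a limma adjusted p of 0.000808 for SMA and 0.80 with 0.00278 for CD31, and 3 proteins passed in place of 1, SMA, CD31 and Histone H3. The same 3 passed without both mice 29 and 72. These p-values use variances that limma moderates toward those of the other proteins, and exact tests were not run with these mice left out. Mouse 81, which stays in, was below 0 for SMA (-0.15). Without mouse 37 the difference of SMA was 0.45 (adjusted p 0.462), so single mice moved it in both directions. CD34, a surface protein of endothelial and progenitor cells, differed by 0.28 (SE 0.16), with mice between -0.07 and 0.61 (adjusted p 0.410 by limma).

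**Figure D2:**
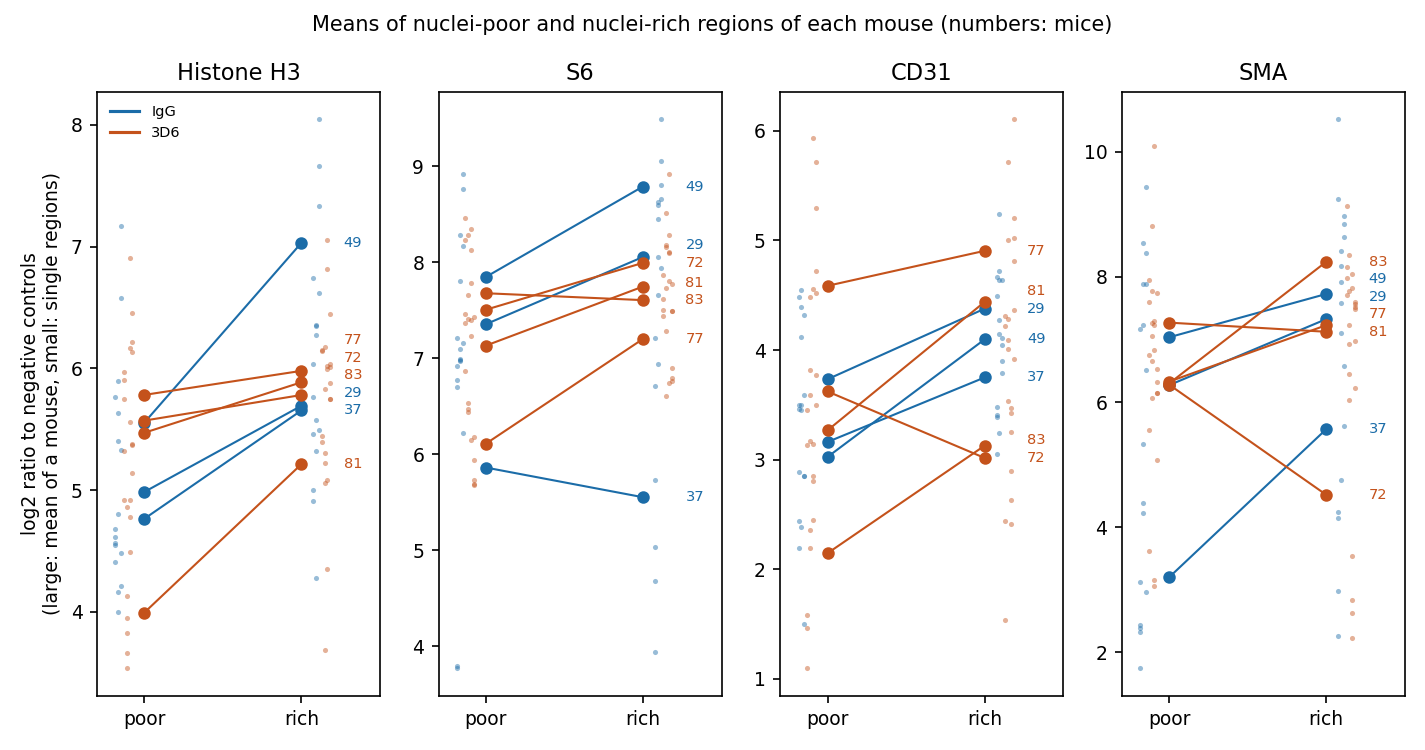
Mean log2 ratio to the negative controls in the nuclei-poor and nuclei-rich regions of each mouse (large points joined by a line, blue IgG, orange 3D6, mouse numbers at the right), with the single regions as small points. Histone H3 goes up in all 7 mice, CD31 in all but mouse 72, and SMA spans from 2.37 higher in mouse 37 to 1.76 lower in mouse 72.

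Immune proteins showed no difference that passed the test. For the 8 T cell proteins, the median difference was 0.09 (range -0.09 to 0.28), 5 of 8 were above 0, and 0 passed. Among them, CD4, CD28, FOXP3 and PD-1 lay below the negative controls and CD8a at 1.14 times. This median therefore rests largely on values near background and says little about T cells. For the 7 myeloid proteins the median difference was 0.13 (-0.15 to 0.21), with 5 of 7 above 0 and 0 passing, and for the 3 proteins of antigen presentation 0.13, also with 0 passing. Over all 28 proteins the median was 0.16, with 23 above 0. Divided by the housekeepers in place of the negative controls, every immune protein lay below 0, through a shift common to all targets that is described further on.

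CD45, a phosphatase on all leukocytes, differed by 0.19 (SE 0.18, adjusted p 0.638 by limma) and was higher in rich regions in 6 of 7 mice, with -0.65 in mouse 77 and 0.04 to 0.70 in the others. F4/80, a macrophage receptor, had the same arrangement, with -1.14 in mouse 77, 0.09 to 0.75 in the others and a mean of 0.15 (SE 0.20, adjusted p 0.706 by limma). Without mouse 77 the means were 0.37 for F4/80 and 0.33 for CD45 (limma adjusted p 0.212 for each), and without mouse 72 they were 0.052 and 0.11 (0.873 for each). In mouse 77, every rich region (-0.21 to 1.38) lay below every poor region (1.52 to 2.34) for F4/80. This was the only complete separation of the classes among the 28 proteins in the 7 mice. In mouse 77 all rich regions also had lower region numbers than all poor regions, so nuclei and region number cannot be told apart there. The negative controls of its rich regions were lower by 0.51.

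Among the co-inhibitory and co-stimulatory receptors of T cells, CTLA4 differed by 0.28 (SE 0.17, adjusted p 0.410 by limma) and CD28 by 0.14 (SE 0.21, adjusted p 0.706), the latter between -0.63 in mouse 77 and 1.24 in mouse 72. CD4, the co-receptor of helper T cells, differed by 0.05 (SE 0.18, adjusted p 0.882). CD28 and CD4 had medians of 5.93 and 4.50 counts per region, and both lay below the negative controls. The 3 checkpoint proteins (PD-1, its ligand PD-L1, and CTLA4) were at a median of 0.28, and PD-L1 differed by 0.40 (SE 0.17, adjusted p 0.265, exact p 0.0625).

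The lowest differences were those of CD163, GZMB and FOXP3. CD163, the haemoglobin scavenger receptor of perivascular macrophages, differed by -0.15 (SE 0.21, adjusted p 0.706 by limma), with 3 of 7 mice higher and a range from -1.12 in mouse 77 to 0.66 in mouse 29. GZMB, a protease of cytotoxic lymphocytes, differed by -0.09 (SE 0.19, adjusted p 0.791) and FOXP3, the transcription factor of regulatory T cells, by -0.07 (SE 0.19, adjusted p 0.83). Ly6G/Ly6C, carried by neutrophils and monocytes, differed by -0.03 (SE 0.18, adjusted p 0.916) with 3 of 7 mice higher. For each of these 4 proteins, mice lay on both sides of 0. CD163 and FOXP3 were at 0.777 and 0.545 times the negative controls, with under 10 counts in 44 and 64 of 84 regions.

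Other targets were fibronectin, a matrix glycoprotein, at 0.29 (SE 0.24, adjusted p 0.573 by limma), the proliferation antigen Ki-67 at 0.29 (SE 0.16, adjusted p 0.410) and the epithelial keratins (PanCk) at 0.03 (SE 0.16, adjusted p 0.916). Fibronectin ranged from -1.18 in mouse 77 to 1.504 in mouse 72, wider than any immune protein except CD14, an endotoxin co-receptor of monocytes, which ranged from -1.82 in mouse 37 to 1.33 in mouse 77. At an unadjusted p under 0.05, 4 of 28 proteins (14.3%) differed, Histone H3, CD31, S6 and PD-L1.

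**Figure D3:**
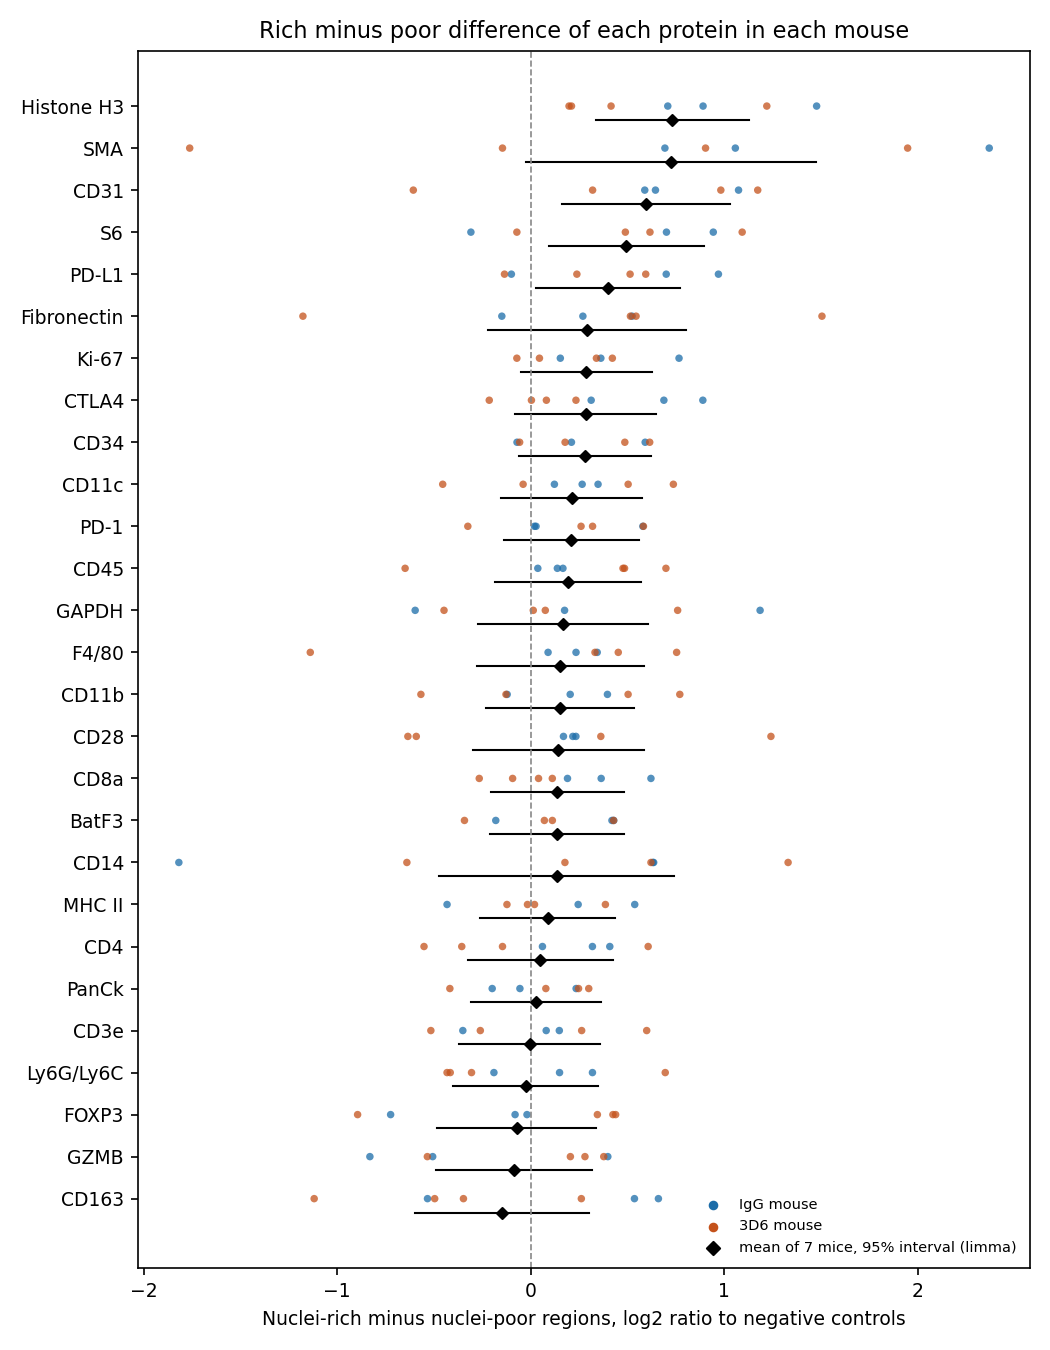
Nuclei-rich minus nuclei-poor difference (log2 ratio to the negative controls) of 27 of the 28 proteins, with 1 point per mouse (blue IgG, orange 3D6) and below it the mean of the 7 mice with its 95% interval from limma. Means run from 0.73 for Histone H3 to -0.15 for CD163, and only Histone H3 has all 7 mice on 1 side of 0.

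The direction of the targets depended on the scaling. With the ratio to the negative controls, 20 of 25 targets were higher in rich regions, with a median of 0.15. Without division, 22 of 25 were higher, with a median of 0.18. Divided by the 3 housekeepers (geometric mean), 2 of 25 were higher, SMA (0.26) and CD31 (0.13), and 23 were lower, with a median of -0.31, a shift of -0.46. The change of divisor moves the mean of every target by this same amount. The turned signs follow from it and are not separate results for each protein. The housekeepers' own log2 mean over the negative controls was higher in rich regions by 0.46 ± 0.43 (SD, n = 7, 5 of 7 mice, exact p = 0.0625). No target passed on this scale (lowest adjusted p 0.216 by limma, 5 of 25 at an unadjusted p under 0.05). Relative to the housekeepers, CD45 was at -0.27, F4/80 at -0.31, CTLA4 at -0.18, CD28 at -0.32 and CD4 at -0.42, each opposite in sign to its value over the negative controls.

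**Figure D4:**
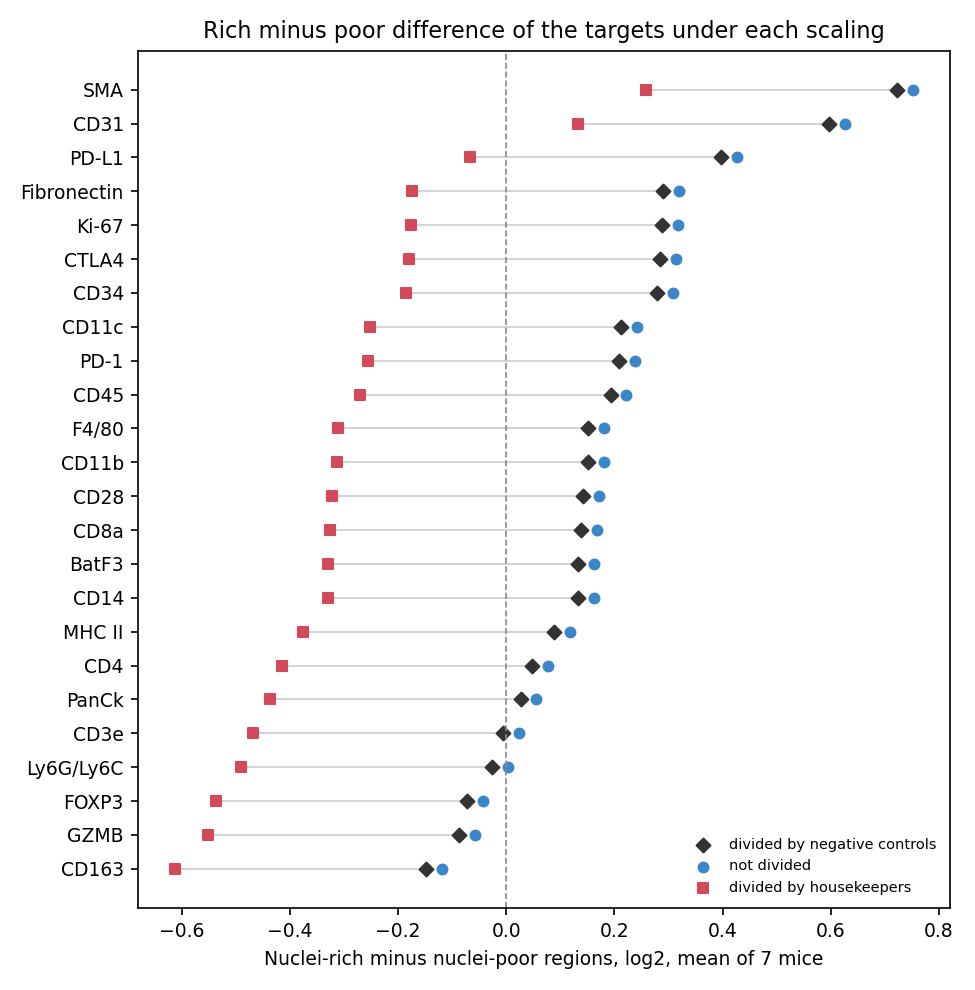
Mean nuclei-rich minus nuclei-poor difference over 7 mice (log2) of 24 of the 25 targets, divided by the negative controls (black diamonds), not divided (blue points) or divided by the housekeepers (red squares). Over all 25 targets, the median moves from 0.15 to -0.31 between the first and the last, and SMA and CD31 alone stay above 0.

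Within each treatment the comparison rests on few mice. In the 3 IgG mice, 0 of 28 proteins passed the adjusted threshold (0.0%) and 5 had an unadjusted p under 0.05 (17.9%), among them Histone H3, SMA, CTLA4 and CD31. With the slope per doubling of nuclei in place of the split, 7 passed, and without the regions of high background 1 passed, Histone H3. Histone H3 was higher in rich regions by 1.02 (SE 0.28, adjusted p 0.0728 by limma, 3 of 3 mice). SMA was higher by 1.37 (SE 0.53, adjusted p 0.160), CD31 by 0.77 (SE 0.32, adjusted p 0.182) and CTLA4 by 0.63 (SE 0.24, adjusted p 0.160), each in 3 of 3 mice. The smallest exact p that 3 mice allow is 0.25.

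In the 4 3D6 mice, 0 of 28 proteins passed (0.0%), and 0 had an unadjusted p under 0.05 by limma (0.0%). Histone H3 was higher in rich regions by 0.51 (SE 0.24, adjusted p 0.867 by limma, 4 of 4 mice, exact p 0.125, the smallest that 4 mice allow) and S6 by 0.53 (SE 0.26, adjusted p 0.867). CD31 was at 0.47 (SE 0.28, 3 of 4 mice) and SMA at 0.24 (SE 0.46, 2 of 4 mice), and CD163 was at -0.43 (SE 0.27, 1 of 4 mice higher).

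The treatments were then compared in the difference itself. Between 3D6 and IgG, 0 of 28 proteins passed (0.0%), and 1 had an unadjusted p under 0.05 by limma (3.57%), with an adjusted p of 0.850. For Histone H3 the treatments differed by -0.51 (95% interval -1.30 to 0.27, adjusted p 0.850 by limma, exact p 0.200 over the 35 splits of the mice), and for SMA by -1.14 (-2.66 to 0.38, exact p 0.371). Within the 3 readout runs, each with 1 IgG mouse, the treatment difference for Histone H3 was -0.69 (mice 37 and 77), -0.29 (mice 29 and 72) and -0.76 (mice 49, 83 and 81), and for SMA -1.47, -2.82 and 0.21. The mice of the treatments did not overlap for 2 of 28 proteins (7.14%), CTLA4 (0.31 to 0.89 under IgG, -0.21 to 0.23 under 3D6) and the cytotoxic T cell co-receptor CD8a (0.19 to 0.62 and -0.27 to 0.11), each with a limma adjusted p of 0.850. CD8a lay at 1.14 times the negative controls, with under 10 counts in 20 of 84 regions. For CTLA4 the within-run treatment differences were -0.66, -0.53 and -0.65, and for CD8a -0.15, -0.89 and -0.35. Their common sign follows from the absence of overlap for which these 2 proteins were named. Their sizes come from the same differences of the mice, so both are a description and add no separate evidence.

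The leptomeninges, the membranes over the brain whose vessels feed the penetrating ones, were split in the same way into 41 rich and 41 poor regions of the same 7 mice. There, 0 of 28 proteins passed the adjusted threshold (0.0%), and 5 had an unadjusted p under 0.05 by limma (17.9%). These were CD14 at -0.52, fibronectin at 0.48, F4/80 at 0.45, Ki-67 at 0.39 and Histone H3 at 0.38. The difference between the sites, penetrating minus leptomeningeal within a mouse, passed the adjusted threshold for 0 of 28 proteins (0.0%) and had an unadjusted p under 0.05 for 3 (10.7%), CD14, SMA and CD31. Without moderation of the variances, 0 of 28 had an unadjusted p under 0.05. Moderation gave all 28 proteins nearly the same SE (0.263 to 0.265), although the site differences of SMA ran from -1.98 in mouse 72 to 2.16 in mouse 83. The limma p-values and intervals of the site differences therefore rest on a shared variance and not on the spread of each protein. For CD14 the site difference was 0.66 (SE 0.26, adjusted p 0.223 by limma, exact p 0.125, 5 of 7 mice), and for CD31 0.59 (SE 0.26, adjusted p 0.256, exact p 0.109, 6 of 7 mice). For SMA, with 0.72 on penetrating vessels and 0.08 in the leptomeninges, it was 0.64 (SE 0.26, adjusted p 0.223, exact p 0.250, 5 of 7 mice). Without mouse 72 the site difference of SMA passed the adjusted threshold by limma with moderated variances, and it was the only protein to do so. For Histone H3 the site difference was 0.35 (95% interval -0.17 to 0.87, adjusted p 0.914), so it was not shown to differ between the sites.

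**Figure D5:**
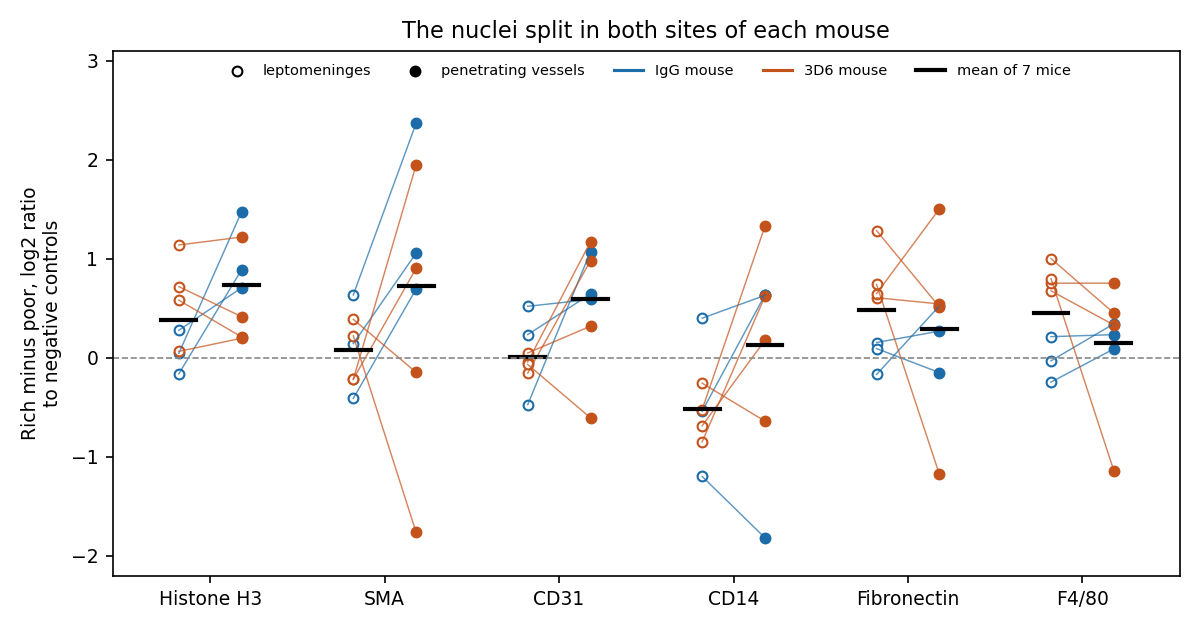
Nuclei-rich minus nuclei-poor difference (log2 ratio to the negative controls) of 6 proteins in the leptomeninges (open points) and on penetrating vessels (filled points), 1 line per mouse, with the mean of 7 mice as a black bar. SMA and CD31 lie near 0 in the leptomeninges (0.08 and 0.01) and above it on penetrating vessels (0.72 and 0.60), with mouse 72 below 0 there for both.

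Without a split, the relation to the number of nuclei was described over all 84 penetrating-vessel regions, with the mean of each mouse subtracted from the log2 number of nuclei and from the log2 ratio. Regions of a mouse share an animal and a scan, and all ratios of a region share a divisor, so the coefficients carry no test. Pearson's r was highest for Histone H3 (0.42), followed by SMA (0.36), CD31 and CTLA4 (both 0.35) and S6 (0.26), and lowest for Ly6G/Ly6C and GZMB (both -0.14). For Histone H3 it was 0.53 over IgG and 0.30 over 3D6 regions and above 0 in 6 of 7 mice, from -0.05 in mouse 83 to 0.84 in mouse 37. For CD31 it was above 0 in all but mouse 72 (-0.21).

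Single regions of the classes overlapped. For Histone H3, 16 of 39 rich regions lay above every poor region of their mouse, among them 5 of 6 in mouse 81, 3 of 6 in mouse 29, 3 of 5 in mouse 49 and 0 of 6 in mouse 77. Ki-67, at the level of the negative controls, also had 16, and the other 26 proteins had between 2 and 12. For SMA the number was 5, with single regions from 2.25 to 10.52 among the rich and 1.74 to 7.17 among the poor regions of mouse 37.

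The mice differed in how many proteins were higher in rich regions. In mouse 29 it was 27 of 28 (median difference 0.41), in mouse 81 24 (0.37), and in mice 49 and 72 22 each (0.35 and 0.40). In mouse 37 it was 16 (0.11), in mouse 77 13 (-0.04) and in mouse 83 11 (-0.10). The negative controls were lower in rich regions of mouse 29 by 0.28 and of mouse 77 by 0.51 and higher in those of mouse 37 by 0.62 and of mouse 49 by 0.48, and the part of this divisor in the spread between mice was not tested.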

How the data were processed

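Per the labels and the study's methods, 31 antibody probes were counted in each region (nCounter readout). The deposited counts had been multiplied by the authors' positive-control and calibration factors, are not whole, and were not divided by negative controls, housekeepers or area. From the deposited summary of regions, the number of nuclei, the positive-control factor (a ratio), the binding density (a signal of barcodes per area) and the share of counted fields (a fraction) were used. How nuclei were counted is not given in the sources used here. The authors' scaled scores were not used, and a mouse that the deposited table names as removed was not analysed here.

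Log2 ratios were formed without a pseudocount. The rich minus poor difference of each mouse was tested against 0 in limma 3.58.1 (R 4.3.3, empirical Bayes moderation), two-sided, with the Benjamini-Hochberg adjustment over 28 proteins and a threshold of 0.05. Both classes come from the same animals, so the mouse is the block. A second fit with 1 mean per treatment gave the IgG, 3D6 and 3D6 minus IgG values. Exact sign-flip and 35-split permutation tests (two-sided) stand beside them (Python 3.11.15, numpy 2.4.6, pandas 2.3.3), and limma was tested on simulated data. The p-values rest on the spread between mice, and counting error is not modelled. In limma the spread of each protein is moderated toward that of the other proteins, which the exact tests do not do. Tests for whole counts could not be used. Alternatives covered scaling, a pseudocount of 1, region medians, a filter on proteins under 2 times background, the split, the unit of replication, moderation, adjustment, low-quality regions and leaving out each mouse. Leaving out both mice 29 and 72 and adding the region number as a covariate were chosen after seeing the data.

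The members, protein lists and tests were chosen with earlier results of these data known. Full statistics are given for each protein past the threshold, the 3 largest differences in each direction, the housekeepers, and SMA, CTLA4, CD28, Ly6G/Ly6C, CD45, F4/80 and CD4. PD-L1, CD34, CD14, CD8a, Ki-67, fibronectin and PanCk were named after their values were seen. The values of 1 target are not reported here, although it stays in the counts and medians.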

Additional observations from a re-analysis of the deposited data

Results flagged for a closer look

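In 56 groups of rich minus poor differences (28 proteins over the 7 mice and over the 4 3D6 mice), the lowest or the highest mouse was set against the rest by the Dixon criterion, and 4 (7.14%) stood apart, where chance gives about 1 in 20. Mouse 77 was the lowest for F4/80 over the 7 mice (-1.14), for CD45 over the 3D6 mice (-0.65) and for FOXP3 over the 3D6 mice (-0.89). Its classes were also fully divided by region number, which cannot be told apart from nuclei in this mouse. Mouse 72 was the highest for Ly6G/Ly6C over the 3D6 mice (0.69). FOXP3 lay below the negative controls on average. On penetrating vessels, no protein had all mice of 1 treatment on the opposite side of 0 from all mice of the other.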

How the results depend on the processing

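The number of proteins past the adjusted threshold over the 7 mice, 1 in the main analysis, was 0 with no normalization, with the median of regions, with the slope per doubling of nuclei, with no replicate block, with no moderation and without regions of few nuclei, 3 without both mice 29 and 72, and 0 to 3 when each mouse was left out in turn. With housekeeper normalization 0 of 25 targets passed, and Histone H3, as part of the divisor, could not be called. The slope of Histone H3 was 1.44 per doubling of nuclei (adjusted p 0.129 by limma). It kept its direction in each of the 23 alternatives run for it. In IgG, 0 became 7 with the slope per doubling of nuclei (among them CD31, CTLA4, Histone H3, PD-L1, S6 and SMA), 1 with regions entered under a fixed effect of the mouse (which counts regions as replicates), 1 without regions of high background, and 0 to 2 when each mouse was left out. Between the sites, 0 became 1 without both mice 29 and 72, and 0 to 1 when each mouse was left out. In 3D6 and between the treatments it was 0 in every alternative run.

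The sign turned for several proteins. With housekeeper normalization it turned for all targets above 0 except SMA and CD31, and the difference became -0.32 for CD28, -0.42 for CD4, -0.27 for CD45, -0.18 for CTLA4 and -0.31 for F4/80. This change of divisor shifts all targets by the same amount. CD163 was at 0.081 with the median of regions and 0.071 without regions of few nuclei, CD28 at -0.10 without both mice 29 and 72, CD4 at -0.035 without regions of high background, and FOXP3 at 0.034 with the 4 richest against the 4 poorest regions. Ly6G/Ly6C was at 0.0032 with no normalization, 0.074 with the median of regions, 0.046 with the 4 richest against the 4 poorest regions and 0.14 as a slope. Leaving out each mouse gave -0.28 to 0.013 for CD163, -0.041 to 0.27 for CD28, -0.045 to 0.15 for CD4, -0.16 to 0.064 for FOXP3, -0.0041 to 0.29 for GAPDH, -0.17 to 0.036 for GZMB and -0.15 to 0.041 for Ly6G/Ly6C. For the negative controls it gave -0.069 to 0.12, and they were at -0.079 without regions of high background. The causes were not tested.

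The comparison rests on 7 mice, and the 95% intervals give its precision with the moderated variances of limma. Of the 28 proteins, 10 lay under 2 times the negative controls, and what depth adds to their error was not tested.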
